A study of Homo sapiens with 24 samples.

Results

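The aminoacyl-tRNA synthetases and their partners were examined as 40 genes of the 13033 in the expression table. They were taken by name: every gene whose symbol is a letter followed by ARS and then 1 or 2, together with EPRS1, FARSA, FARSB, QARS1, AIMP1, AIMP2 and PTRH2. This gave 20 cytosolic enzymes, 17 mitochondrial enzymes, the scaffold proteins AIMP1 and AIMP2, and PTRH2. PTRH2 is a mitochondrial peptidyl-tRNA hydrolase and charges no tRNA, and it is kept apart from the enzymes. All 40 members had a value in every library, and no further filter on low values was applied to them.

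Aminoacyl-tRNA synthetases join each amino acid to its tRNA, the step that sets the genetic code. Human cells keep separate nuclear genes for cytosolic and for mitochondrial translation, and GARS1 and KARS1 serve both compartments and are counted here as cytosolic. Part of the cytosolic enzymes sit in a multisynthetase complex held together by AIMP1, AIMP2 and EEF1E1, while the others are free. Many cytosolic synthetase genes are known targets of ATF4, the transcription factor of the amino acid response, which binds C/EBP-ATF response elements.

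The cells were OCIAML-3, an acute myeloid leukaemia line with NRAS Q61L, and Molm-14, an acute myeloid leukaemia line with FLT3-ITD. Each was treated with RMC-7977, an inhibitor of the active form of RAS proteins, at 25 nM for 2 h or 24 h, or with the solvent DMSO, and poly(A) RNA was sequenced. The labels give no time for DMSO, so the same DMSO libraries serve both times of a line, and results at 2 h and 24 h share them. Every group had n = 4 libraries except OCIAML-3 at 24 h, where n = 3 libraries (replicates 1, 2 and 4) and the third labelled library was not analysed here. The labels do not state whether the libraries of a group are separate cultures, so p-values measure the spread between libraries, which may be technical. Each line is a single established cell line.

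Effective library sizes had a median of 18.5 M reads and lay between 15.4 M and 22.4 M. All 8 myeloid markers checked were in the table, with summed levels of 1111 to 7196 CPM (counts scaled to a common library size) per library. The sum was 6778 to 7196 CPM in OCIAML-3 at 24 h, against 2248 to 2373 CPM in its DMSO libraries, and 1687 to 1751 CPM in Molm-14 at 24 h, against 1122 to 1176 CPM in its DMSO libraries. Single myeloid markers differed, with log2 changes from DMSO at 24 h of -0.51 to 3.71 in OCIAML-3 and -2.15 to 3.64 in Molm-14. Of 6 lymphoid markers 1 was listed, at 1.07 to 24.6 CPM, and none of 6 erythroid and platelet markers was. Of 6 epithelial and stromal markers 3 were listed, with EPCAM, KRT19 and COL1A1 absent from the table. Their sum was 32.5 to 38.5 CPM after 2 h and 76.9 to 80.1 CPM at 24 h in OCIAML-3, against 32.7 to 36.7 CPM in DMSO, and 172 to 174 CPM and 136 to 145 CPM in Molm-14, against 87.6 to 89.9 CPM in DMSO. The part of these marker changes in the results below was not tested.

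The start regions of the members are shown first. Part of these regions carry elements known from the amino acid response, and a link of the elements to the drug response was not tested. RefSeq (GRCh38.p14) gave a window of 250 bases before to 50 bases after a listed start for 33 of the 40 members. For CARS2, EARS2, FARS2 and TARS1 that start lies inside the RefSeq gene. Both strands were searched for TGATGNAA, a core of the C/EBP-ATF response element, and for CACGTG, the E-box read by MYC and its relatives. TGATGNAA was found in 6 of 16 cytosolic windows (37.5%) and in 1 of 14 mitochondrial windows (7.14%), against 1.71% of 10440 windows of genes in the table and 3.67% of all 27305 windows. CACGTG was found in 1 of 16 cytosolic windows (6.25%) and in 3 of 14 mitochondrial windows (21.4%), against 10.2% of the windows of genes in the table and 7.43% of all windows. The 2 motifs do not overlap each other as written. The 30 bases around each match are printed 5′ to 3′ on the strand of the gene, with the match in capitals. The first 7 hold TGATGNAA or its reverse complement, and the last 4 hold CACGTG.
AARS1 (chr16:70289675-70289704, minus strand): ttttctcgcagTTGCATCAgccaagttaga
CARS1 (chr11:3057407-3057436, minus strand): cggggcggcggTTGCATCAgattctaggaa
IARS1 (chr9:92293692-92293721, minus strand): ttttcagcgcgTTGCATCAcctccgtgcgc
MARS1 (chr12:57488053-57488082, plus strand): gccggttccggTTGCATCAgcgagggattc
NARS1 (chr18:57621804-57621833, minus strand): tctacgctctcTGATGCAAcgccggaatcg
TARS1 (chr5:33440956-33440985, plus strand): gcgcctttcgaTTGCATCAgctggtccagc
YARS2 (chr12:32756076-32756105, minus strand): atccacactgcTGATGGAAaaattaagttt
CARS2 (chr13:110706501-110706530, minus strand): tgctgggatgcaCACGTGcttcgctaacag
EARS2 (chr16:23557348-23557377, minus strand): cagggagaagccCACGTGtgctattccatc
IARS1 (chr9:92293866-92293895, minus strand): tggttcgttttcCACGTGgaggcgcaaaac
MARS2 (chr2:197705346-197705375, plus strand): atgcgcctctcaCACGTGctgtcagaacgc

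The 6 cytosolic matches share TTGCATCA or, in NARS1, its reverse complement. In CARS1, MARS1 and TARS1 the match began within 4 bases of the start used for the window, and in AARS1 it began 187 bases before it. For TARS1 that start is not the outer end of the RefSeq gene, which is at chr5:33440696. The same holds for CARS2, whose gene ends at chr13:110713522. A match describes these letters only, and no binding was measured. HARS1 and HARS2, the cytosolic and mitochondrial histidine enzymes, lie head to head on chromosome 5 with 84 bases between their RefSeq starts (59.5% G and C), and their windows share 184 bases. The sequence between them is printed on the plus strand, with no part in capitals, because the pair behaved differently under the drug.
HARS1-HARS2 (chr5:140691371-140691454, plus strand): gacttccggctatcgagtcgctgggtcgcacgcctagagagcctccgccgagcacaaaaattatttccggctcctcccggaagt

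In untreated cells the median level of the cytosolic genes was well above that of the mitochondrial genes, but single genes overlapped. The lowest cytosolic enzyme was at 28.7 CPM per kb in OCIAML-3 DMSO and 31.4 CPM per kb in Molm-14 DMSO. The highest mitochondrial enzyme was at 65.9 CPM per kb in OCIAML-3 DMSO and 65.3 CPM per kb in Molm-14 DMSO. Per kilobase of transcript, the median level of the 20 cytosolic enzymes was 77.0 CPM per kb in OCIAML-3 DMSO and 114 CPM per kb in Molm-14 DMSO. For the 17 mitochondrial enzymes it was 15.5 CPM per kb in OCIAML-3 DMSO and 14.4 CPM per kb in Molm-14 DMSO. TARS1, the threonine enzyme, was highest in OCIAML-3 DMSO at 218 ± 6.0 CPM per kb, and MARS1, the methionine enzyme, was highest in Molm-14 DMSO at 322 ± 2.0 CPM per kb (SD, n = 4). PARS2, the mitochondrial proline enzyme, was lowest in both, at 4.43 ± 0.20 CPM per kb in OCIAML-3 DMSO and 2.48 ± 0.13 CPM per kb in Molm-14 DMSO. The length used for MARS1 was 1400 bases, the median of its annotated transcripts, while its exons cover 2905 bases in all. Levels per kilobase depend on the length used, as does the top rank of MARS1.

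After 24 h of RMC-7977, most cytosolic and most mitochondrial synthetase genes were lower than in DMSO in both lines. The median change was smaller for the mitochondrial genes. The summed level of the cytosolic enzymes was 3548 ± 15 CPM after 2 h and 2094 ± 15 CPM at 24 h in OCIAML-3, against 4398 ± 83 CPM in DMSO. In Molm-14 it was 5210 ± 49 CPM after 2 h and 3073 ± 44 CPM at 24 h, against 6037 ± 46 CPM in DMSO. The summed level of the mitochondrial enzymes was 874 ± 4.4 CPM after 2 h and 551 ± 4.7 CPM at 24 h in OCIAML-3, against 888 ± 20 CPM in DMSO. In Molm-14 it was 826 ± 9.2 CPM after 2 h and 683 ± 16 CPM at 24 h, against 896 ± 7.4 CPM in DMSO. No library overlapped between the drug groups and DMSO in these sums, except in the mitochondrial sum of OCIAML-3 at 2 h, where 868 to 878 CPM lay within the 867 to 915 CPM of DMSO. In bulk RNA, fewer cells of a type and less RNA per cell cannot be told apart.

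A gene counted as called when limma's adjusted p (Benjamini-Hochberg over 13033 genes) was below 0.05 and its log2 fold change was 1 or more in size, and the words rose and fell are kept for called genes. In OCIAML-3 at 24 h, 20 of the 40 members fell and 0 rose, against 17.1% of all genes that fell and 18.4% that rose. These were 13 of 20 cytosolic enzymes, 6 of 17 mitochondrial enzymes and AIMP2. In Molm-14 at 24 h, 13 members fell and 0 rose, against 6.57% of all genes that fell and 11.4% that rose. These were 12 cytosolic enzymes and the mitochondrial MARS2. At 2 h, 1 member fell in OCIAML-3, against 3.35% of all genes, and 2 fell in Molm-14, against 2.98%, shares near the background. At 2 h 0 members rose, against 3.23% of all genes in OCIAML-3 and 4.3% in Molm-14, by limma.

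Below the fold threshold the members leaned the same way. The median log2 fold change of the cytosolic enzymes was -0.29 at 2 h and -1.18 at 24 h in OCIAML-3, where the medians of all genes were 0.02 at 2 h and 0.01 at 24 h. In Molm-14 it was -0.28 at 2 h and -1.08 at 24 h, with a median of 0 for all genes at both times. The mitochondrial median was -0.04 at 2 h and -0.69 at 24 h in OCIAML-3, and -0.11 at 2 h and -0.49 at 24 h in Molm-14. With library totals the 2 h median in OCIAML-3 had the opposite sign (0.03). Without the fold threshold, at an adjusted p below 0.05, 36 members were lower and 1 was higher in OCIAML-3 at 24 h, where 42% of all genes were lower and 42.4% higher. In Molm-14 at 24 h, 34 were lower and 3 were higher, where 38.6% of all genes were lower and 37.7% higher. At 2 h, 28 were lower and 5 higher in OCIAML-3, where 30.8% of all genes were lower and 31.4% higher, and 25 were lower and 2 higher in Molm-14, where 30.8% of all genes were lower and 28.7% higher. Every 24 h library lay below every DMSO library for 19 of 20 cytosolic and 14 of 17 mitochondrial enzymes in OCIAML-3, against 41% of all genes, and for 18 and 14 in Molm-14, against 36.6%. At an unadjusted p below 0.05 limma counted 6 members as higher in OCIAML-3 and 3 in Molm-14 at 2 h. Of all 13033 genes, 4323 and 3944 were higher by that count. At 24 h it counted 1 member in OCIAML-3 and 3 in Molm-14, against 5562 and 5004 of all genes. By the rule for called genes, limma and limma voom each had 0 members higher in these comparisons.

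**Figure D1:**
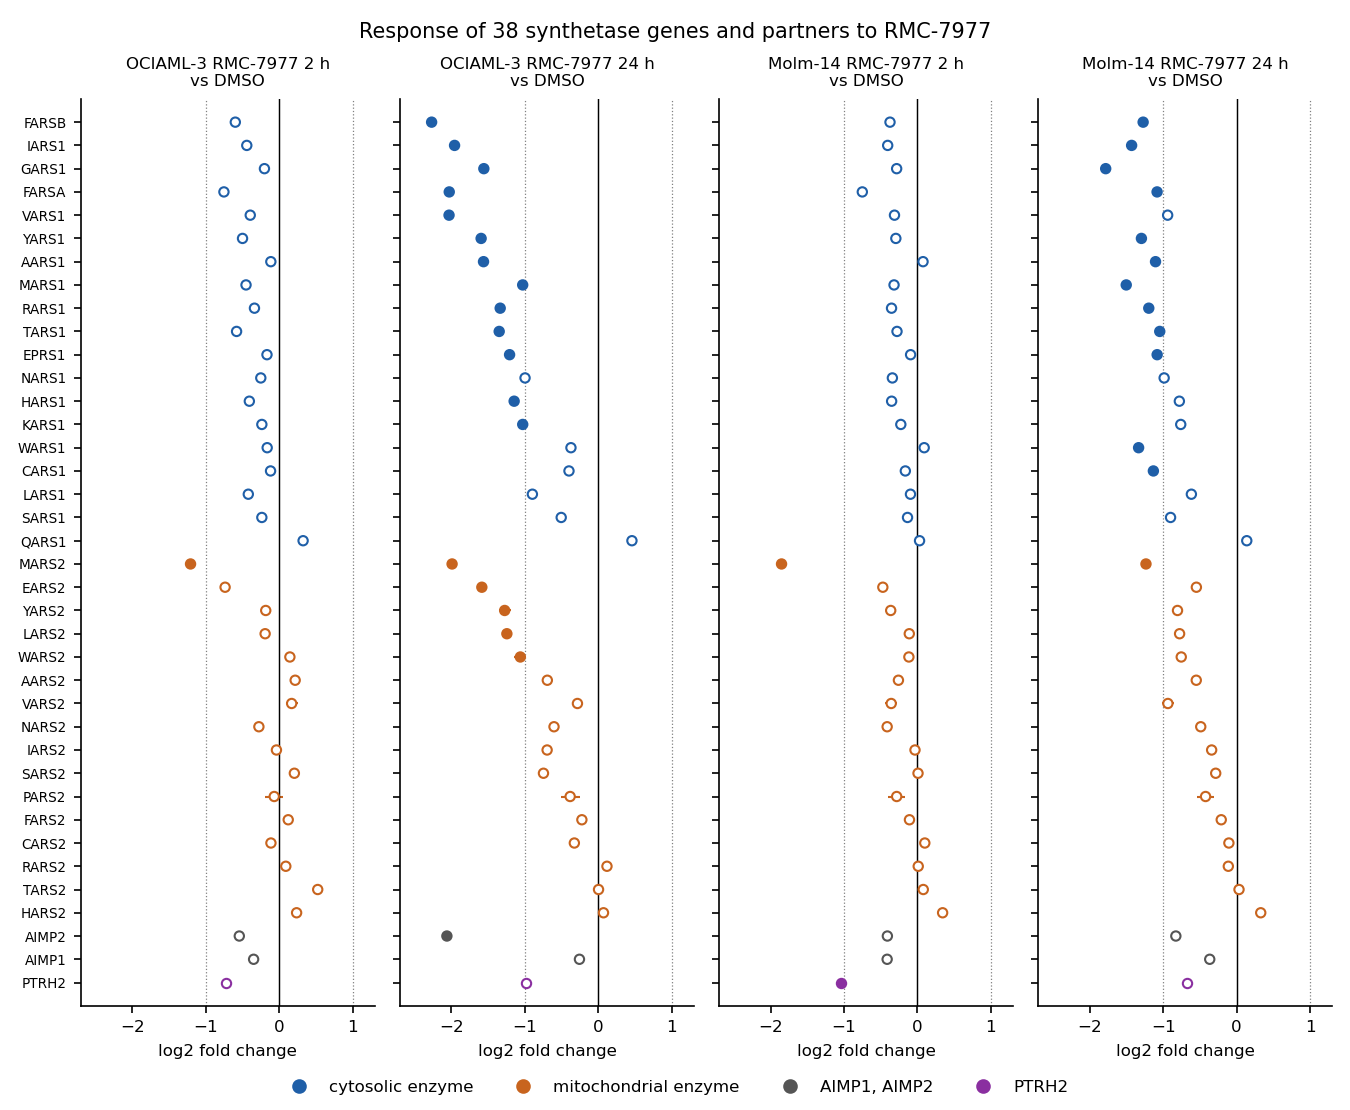
Log2 fold change of 38 members (rows, grouped by class and ordered by the mean 24 h change) for RMC-7977 against DMSO, at 2 h and 24 h in OCIAML-3 and Molm-14; bars are SE, filled points are called (adjusted p below 0.05 and at least 1 in size, dotted lines), and the 2 times of a line share their DMSO libraries. At 24 h the filled points are 19 in OCIAML-3 and 13 in Molm-14, all on the lower side, while at 2 h only MARS2 in both lines and PTRH2 in Molm-14 are filled.

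Of the 8 enzymes of the multisynthetase complex, 5 fell in OCIAML-3 and 4 in Molm-14 at 24 h, against 17.1% and 6.57% of all genes. IARS1, the isoleucine enzyme, had 165, 174, 172 and 162 CPM after 2 h and 56.6, 60.2 and 59.8 CPM at 24 h in OCIAML-3, against 225, 234, 222 and 234 CPM in DMSO. It had 310, 313, 312 and 305 CPM after 2 h and 148, 150, 157 and 156 CPM at 24 h in Molm-14, against 405, 413, 413 and 412 CPM in DMSO. The 3 groups of each line were apart, with DMSO highest and 24 h lowest. Its log2 fold change at 24 h was -1.96 ± 0.04 in OCIAML-3 (adjusted p = 3.9e-28) and -1.43 ± 0.03 in Molm-14 (adjusted p = 7e-25, limma).

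MARS1 had 82.5, 78.7 and 80.4 CPM at 24 h in OCIAML-3, against 172, 160, 161 and 165 CPM in DMSO, and 160, 164, 156 and 157 CPM at 24 h in Molm-14, against 452, 450, 454 and 447 CPM in DMSO. At 2 h it had 120, 118, 120 and 122 CPM in OCIAML-3 and 379, 360, 355 and 353 CPM in Molm-14. No drug library reached its DMSO group at either time. MARS1 fell at 24 h in OCIAML-3 (-1.03 ± 0.04, adjusted p = 2.8e-21) and in Molm-14 (-1.5 ± 0.03, adjusted p = 1.6e-25). The OCIAML-3 call ended when libraries were centred on their median (-0.92) or scaled to their totals (-0.86). By the GENCODE annotation, 62 bases of MARS1 exons overlap those of DDIT3 on the other strand.

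EPRS1, which joins the glutamate and proline enzymes in 1 chain, had 151, 149 and 162 CPM at 24 h in OCIAML-3, against 355, 362, 346 and 359 CPM in DMSO, and 272, 276, 290 and 311 CPM at 24 h in Molm-14, against 610, 577, 633 and 608 CPM in DMSO. The 24 h and DMSO libraries were far apart in both lines, and the 2 h libraries overlapped DMSO in Molm-14 only. At 2 h EPRS1 had 320, 328, 328 and 292 CPM in OCIAML-3 and 561, 576, 561 and 578 CPM in Molm-14. It fell in both lines, with a log2 change of -1.21 ± 0.05 in OCIAML-3 (adjusted p = 1.6e-20) and -1.08 ± 0.04 in Molm-14 (adjusted p = 1e-19). The Molm-14 call ended with scaling to library totals (-0.98). RARS1, the arginine enzyme, fell in OCIAML-3 (-1.34 ± 0.05) and in Molm-14 (-1.19 ± 0.04).

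KARS1, the lysine enzyme of both compartments, had 116, 114 and 115 CPM at 24 h in OCIAML-3, against 239, 228, 252 and 219 CPM in DMSO, and 161, 157, 160 and 159 CPM at 24 h in Molm-14, against 281, 267, 261 and 269 CPM in DMSO. At 2 h it had 199, 204, 194 and 197 CPM in OCIAML-3 and 219, 233, 229 and 242 CPM in Molm-14. The 3 groups did not overlap in either line. KARS1 fell in OCIAML-3 (-1.03 ± 0.04, adjusted p = 8.4e-20), and in Molm-14 its change was -0.76 ± 0.04 (adjusted p = 5.5e-17). The OCIAML-3 call ended with median centring (-0.92), with library totals (-0.86) and without OCIAML-3 DMSO replicate 3 (-0.99). LARS1, the leucine enzyme, changed by -0.90 ± 0.06 in OCIAML-3 and -0.61 ± 0.05 in Molm-14, short of the fold threshold.

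QARS1, the glutamine enzyme of the complex, was not lowered. It had 253, 255, 257 and 266 CPM after 2 h and 290, 281 and 276 CPM at 24 h in OCIAML-3, against 214, 211, 206 and 193 CPM in DMSO. In Molm-14, QARS1 had 340, 329, 316 and 328 CPM after 2 h and 359, 348, 366 and 346 CPM at 24 h, against 327, 332, 312 and 316 CPM in DMSO. All drug libraries were above DMSO in OCIAML-3, and in Molm-14 those at 24 h were above while those at 2 h overlapped. Its log2 change at 24 h was 0.46 ± 0.04 in OCIAML-3 (adjusted p = 8.6e-12) and 0.14 ± 0.04 in Molm-14 (adjusted p = 0.0012), below the fold threshold in both.

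Of the 12 free cytosolic enzymes, 8 fell in OCIAML-3 and 8 in Molm-14 at 24 h, against 17.1% and 6.57% of all genes. The smallest adjusted p among members in Molm-14 at 24 h belonged to GARS1, the glycine enzyme of both compartments. It had 179, 181, 184 and 182 CPM after 2 h and 71.2, 74.3 and 67.2 CPM at 24 h in OCIAML-3, against 217, 207, 209 and 202 CPM in DMSO. In Molm-14 it had 296, 309, 307 and 311 CPM after 2 h and 106, 109, 109 and 109 CPM at 24 h, against 385, 365, 365 and 375 CPM in DMSO. The 24 h libraries lay far below both other groups in each line. Its change was -1.56 ± 0.04 in OCIAML-3 (adjusted p = 1.6e-25) and -1.78 ± 0.04 in Molm-14 (adjusted p = 5.1e-27), and in Molm-14 0.591% of all genes were as low or lower.

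FARSA and FARSB encode the alpha and beta subunits of the cytosolic phenylalanine enzyme, so both are needed for 1 activity. FARSB had 20, 20 and 20.1 CPM at 24 h in OCIAML-3, against 101, 91.7, 99.6 and 94.3 CPM in DMSO, and 43.8, 42.3, 44.5 and 44.8 CPM at 24 h in Molm-14, against 106, 104, 102 and 112 CPM in DMSO. FARSA had 74.1, 62.9 and 63.1 CPM at 24 h in OCIAML-3, against 286, 266, 281 and 254 CPM in DMSO, and 159, 156, 158 and 153 CPM at 24 h in Molm-14, against 330, 351, 325 and 321 CPM in DMSO. At 2 h FARSB had 64.0, 64.3, 61.9 and 65.3 CPM in OCIAML-3 and 79.6, 81.9, 81.7 and 83.6 CPM in Molm-14. Neither subunit had overlapping groups. FARSB fell in both lines, with a log2 change of -2.27 ± 0.05 in OCIAML-3 (adjusted p = 8.3e-28), the largest of any member there, and of -1.27 ± 0.04 in Molm-14 (adjusted p = 7.9e-22). FARSA fell too, with a change of -2.03 ± 0.05 in OCIAML-3 (adjusted p = 6.6e-25) and -1.08 ± 0.05 in Molm-14 (adjusted p = 1.9e-18), where scaling to library totals ended the call (-0.98). FARSA also had the largest negative log2 change of the cytosolic members at 2 h, -0.75 ± 0.05 in each line. It then had 158, 156, 159 and 172 CPM in OCIAML-3 and 211, 189, 195 and 194 CPM in Molm-14.

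YARS1, the tyrosine enzyme, had 85.4, 86.0 and 81.5 CPM at 24 h in OCIAML-3, against 261, 251, 254 and 253 CPM in DMSO, and 120, 126, 124 and 125 CPM at 24 h in Molm-14, against 302, 310, 297 and 306 CPM in DMSO. TARS1 had 214, 209 and 225 CPM at 24 h in OCIAML-3, against 532, 549, 569 and 551 CPM in DMSO, and 211, 212, 225 and 219 CPM at 24 h in Molm-14, against 462, 442, 439 and 447 CPM in DMSO. At 24 h both genes were below DMSO in every library, and the 24 h levels of TARS1 overlapped between the lines. YARS1 fell in OCIAML-3 (-1.60 ± 0.04) and in Molm-14 (-1.29 ± 0.03), as did TARS1 (-1.35 ± 0.04 in OCIAML-3 and -1.05 ± 0.04 in Molm-14, where library totals ended the call at -0.95). At 2 h YARS1 had 174, 178, 179 and 189 CPM in OCIAML-3 and 253, 243, 249 and 247 CPM in Molm-14. TARS1 had 378, 381, 361 and 352 CPM in OCIAML-3 and 357, 371, 375 and 373 CPM in Molm-14 at that time. These levels lay between those of DMSO and 24 h. AARS1, the alanine enzyme, had 93.8, 94.5 and 93.7 CPM at 24 h in OCIAML-3, against 298, 266, 273 and 275 CPM in DMSO, and 210, 205, 208 and 204 CPM at 24 h in Molm-14, against 437, 445, 446 and 450 CPM in DMSO. It fell in both lines (-1.56 ± 0.04 in OCIAML-3 and -1.10 ± 0.04 in Molm-14). NARS1, the asparagine enzyme, changed by -1.0 ± 0.04 in OCIAML-3 and -0.99 ± 0.04 in Molm-14 and was just short of the threshold. It was called without OCIAML-3 DMSO replicate 1 (-1.03) or without either of OCIAML-3 24 h replicates 2 and 4 (-1.01 each), and in Molm-14 without DMSO replicate 2 (-1.02) or 24 h replicate 3 (-1.0).

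WARS1 and CARS1, the tryptophan and cysteine enzymes, fell in Molm-14 and were not called in OCIAML-3. WARS1 had 269, 253 and 260 CPM at 24 h in OCIAML-3, against 352, 330, 342 and 328 CPM in DMSO, and 118, 119, 122 and 120 CPM at 24 h in Molm-14, against 304, 309, 295 and 299 CPM in DMSO. CARS1 had 58.7, 59.0 and 54.1 CPM at 24 h in OCIAML-3, against 80.1, 70.1, 80.6 and 71.7 CPM in DMSO, and 58.8, 57.7, 59.8 and 58.3 CPM at 24 h in Molm-14, against 129, 124, 133 and 129 CPM in DMSO. For CARS1 the 24 h levels of the lines overlapped and the DMSO levels did not. At 2 h WARS1 had 294, 295, 302 and 315 CPM in OCIAML-3, below DMSO, and 322, 318, 327 and 319 CPM in Molm-14, above DMSO. The 24 h change of WARS1 was -0.37 ± 0.04 in OCIAML-3 and -1.33 ± 0.03 in Molm-14, a difference of 0.96 ± 0.05 (adjusted p = 2.6e-16), and that of CARS1 was -0.40 ± 0.05 in OCIAML-3 and -1.13 ± 0.05 in Molm-14, a difference of 0.73 ± 0.07 (adjusted p = 1.2e-10). WARS1 is also known as an interferon-induced gene.

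VARS1, the valine enzyme, showed the opposite pattern. It had 225, 231, 235 and 268 CPM after 2 h and 82.3, 77.3 and 71.4 CPM at 24 h in OCIAML-3, against 345, 305, 329 and 283 CPM in DMSO. In Molm-14, VARS1 had 442, 357, 359 and 360 CPM after 2 h and 254, 237, 252 and 238 CPM at 24 h, against 479, 502, 457 and 442 CPM in DMSO. Only the first Molm-14 library at 2 h reached the DMSO range. VARS1 fell in OCIAML-3 at 24 h (-2.03 ± 0.07, adjusted p = 5.2e-20), and its change in Molm-14 was -0.94 ± 0.07 (adjusted p = 6.6e-13).

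The scaffolds of the complex parted. AIMP2 had 41.7, 45.6, 44.4 and 45.6 CPM after 2 h and 15.4, 14.3 and 16.8 CPM at 24 h in OCIAML-3, against 69.0, 62.0, 74.3 and 54.7 CPM in DMSO. In Molm-14 it had 50.6, 53.6, 48.6 and 52.9 CPM after 2 h and 37.9, 39.4, 39.3 and 37.4 CPM at 24 h, against 72.1, 67.4, 70.5 and 63.2 CPM in DMSO. All drug libraries were below DMSO, and the 24 h libraries below those at 2 h. AIMP2 fell at 24 h in OCIAML-3 (-2.06 ± 0.07, adjusted p = 1.4e-21), and its change in Molm-14 was -0.83 ± 0.07 (adjusted p = 2.5e-12). Of its exon bases, 38.7% overlap EIF2AK1 on the other strand, and the strand setting of the counting is not given in the sources used here. EIF2AK1 itself differed by -0.14 in OCIAML-3 and 0.04 in Molm-14 at 24 h on the log2 scale.

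AIMP1 had 63.6, 65.9, 65.8 and 66.7 CPM after 2 h and 67.1, 72.7 and 69.6 CPM at 24 h in OCIAML-3, against 84.4, 83.1, 82.0 and 84.3 CPM in DMSO. In Molm-14, AIMP1 had 80.1, 88.5, 83.0 and 89.9 CPM after 2 h and 86.3, 92.9, 86.8 and 86.8 CPM at 24 h, against 111, 103, 121 and 120 CPM in DMSO. Every drug library was below DMSO, and the 24 h levels were above those at 2 h in OCIAML-3 and overlapped them in Molm-14. Its changes of -0.26 ± 0.05 in OCIAML-3 and -0.36 ± 0.05 in Molm-14 at 24 h did not reach the fold threshold. Of its exon bases 11.7% overlap TBCK, which differed by 1.87 in OCIAML-3 at 24 h on the log2 scale.

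MARS2 encodes the mitochondrial methionine enzyme (chr2:197705369-197708395, GRCh38) and was the only enzyme to fall at 2 h in either line. It had 18.7, 19.2, 18.2 and 18.2 CPM after 2 h and 10.2, 10.4 and 11.8 CPM at 24 h in OCIAML-3, against 43.9, 41.5, 43.2 and 43.2 CPM in DMSO. In Molm-14 it had 13.4, 11.1, 11.5 and 10.7 CPM after 2 h and 18.7, 18.2, 17.3 and 17.3 CPM at 24 h, against 43.7, 42.2, 43.5 and 38.8 CPM in DMSO. The DMSO levels of the lines overlapped. The OCIAML-3 libraries were lower at 24 h than at 2 h, and the Molm-14 libraries were lower at 2 h than at 24 h, with no overlap. At 2 h MARS2 fell in both lines, with a log2 change of -1.21 ± 0.07 in OCIAML-3 (adjusted p = 6.4e-16) and -1.85 ± 0.07 in Molm-14 (adjusted p = 1.5e-20), a difference of 0.64 ± 0.09 (adjusted p = 1.8e-06). At 24 h it fell as well, with a change of -1.99 ± 0.07 in OCIAML-3 (adjusted p = 1.5e-21) and -1.23 ± 0.07 in Molm-14 (adjusted p = 8.6e-17), a difference of -0.76 ± 0.10 (adjusted p = 6.1e-08). The CACGTG printed above for MARS2 begins 11 bases before its RefSeq start.

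EARS2, the mitochondrial glutamate enzyme, had 17.4, 18.4 and 17.1 CPM at 24 h in OCIAML-3, against 55.4, 53.6, 51.5 and 51.4 CPM in DMSO, and 23.2, 24.0, 26.6 and 24.1 CPM at 24 h in Molm-14, against 35.1, 36.1, 36.3 and 35.2 CPM in DMSO. EARS2 fell in OCIAML-3 (-1.59 ± 0.06), and its change in Molm-14 was -0.55 ± 0.05. Both lines already held lower EARS2 at 2 h, with 31.0 to 32.9 CPM in OCIAML-3 and 24.5 to 26.7 CPM in Molm-14.

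YARS2 (-1.28 ± 0.08), LARS2 (-1.25 ± 0.06) and WARS2 (-1.06 ± 0.08), the enzymes for tyrosine, leucine and tryptophan, also fell in OCIAML-3 at 24 h. WARS2 had 8.69, 9.35 and 8.23 CPM at 24 h in OCIAML-3, against 18.4, 19.6, 18 and 17.2 CPM in DMSO, and 9.23, 8.5, 10.9 and 9.60 CPM at 24 h in Molm-14, against 16.2, 15.3, 17.2 and 15.5 CPM in DMSO. At 2 h it had 20.3, 20.1, 19.6 and 20.7 CPM in OCIAML-3 and 15.5, 14.7, 13.6 and 15.4 CPM in Molm-14. These libraries overlapped DMSO in both lines. The 24 h and DMSO groups did not overlap, and its change in Molm-14 was -0.75 ± 0.07. The OCIAML-3 call of WARS2 ended with median centring (-0.95), with library totals (-0.89) and with a pseudocount of 1 CPM (-0.99). VARS2, the mitochondrial valine enzyme, changed by -0.28 ± 0.08 in OCIAML-3 and -0.93 ± 0.08 in Molm-14, where it was called without Molm-14 24 h replicate 2 (-1.01). Another 10 mitochondrial enzymes lay between -0.75 and 0.33 at 24 h in both lines. Among them RARS2, the arginine enzyme, changed by 0.12 ± 0.06 in OCIAML-3 and -0.11 ± 0.06 in Molm-14, and TARS2, the threonine enzyme, by 0.00 ± 0.05 in OCIAML-3 and 0.03 ± 0.05 in Molm-14. TARS2 was at 90.2 ± 3.6 CPM in OCIAML-3 at 2 h, against 62.8 ± 1.7 CPM in DMSO, a change of 0.52 ± 0.05 (adjusted p = 5.5e-11).

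PARS2 and FARS2 stayed short of the fold threshold in both lines. PARS2 had 8.02, 7.64 and 8.22 CPM at 24 h in OCIAML-3, against 10.1, 10.2, 11.1 and 10.2 CPM in DMSO, and 5.05, 3.20, 4.86 and 4.53 CPM at 24 h in Molm-14, against 5.99, 5.57, 6.18 and 5.56 CPM in DMSO. FARS2, the mitochondrial phenylalanine enzyme, had 11.4, 10.1 and 10.9 CPM at 24 h in OCIAML-3, against 12.9, 12.1, 13.3 and 12.1 CPM in DMSO, and 10.9, 12, 11.9 and 11.7 CPM at 24 h in Molm-14, against 13.8, 13.6, 14 and 12.5 CPM in DMSO. At 2 h PARS2 had 8.96, 11, 8.94 and 10.9 CPM in OCIAML-3 and 5.76, 4.21, 4.76 and 4.53 CPM in Molm-14. FARS2 had 14.8, 13.4, 13.4 and 13.3 CPM in OCIAML-3 and 12.2, 12.7, 12.6 and 12.5 CPM in Molm-14 at 2 h. For both genes the 24 h libraries lay below DMSO by small steps, with changes of -0.38 ± 0.13 for PARS2 and -0.22 ± 0.07 for FARS2 in OCIAML-3, and of -0.42 ± 0.12 for PARS2 and -0.21 ± 0.07 for FARS2 in Molm-14. SARS2 shares 67.4% of its exon bases with another annotated gene on its own strand, so its values are uncertain. It changed by -0.75 ± 0.07 in OCIAML-3 and by -0.28 ± 0.06 in Molm-14 at 24 h.

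**Figure D2:**
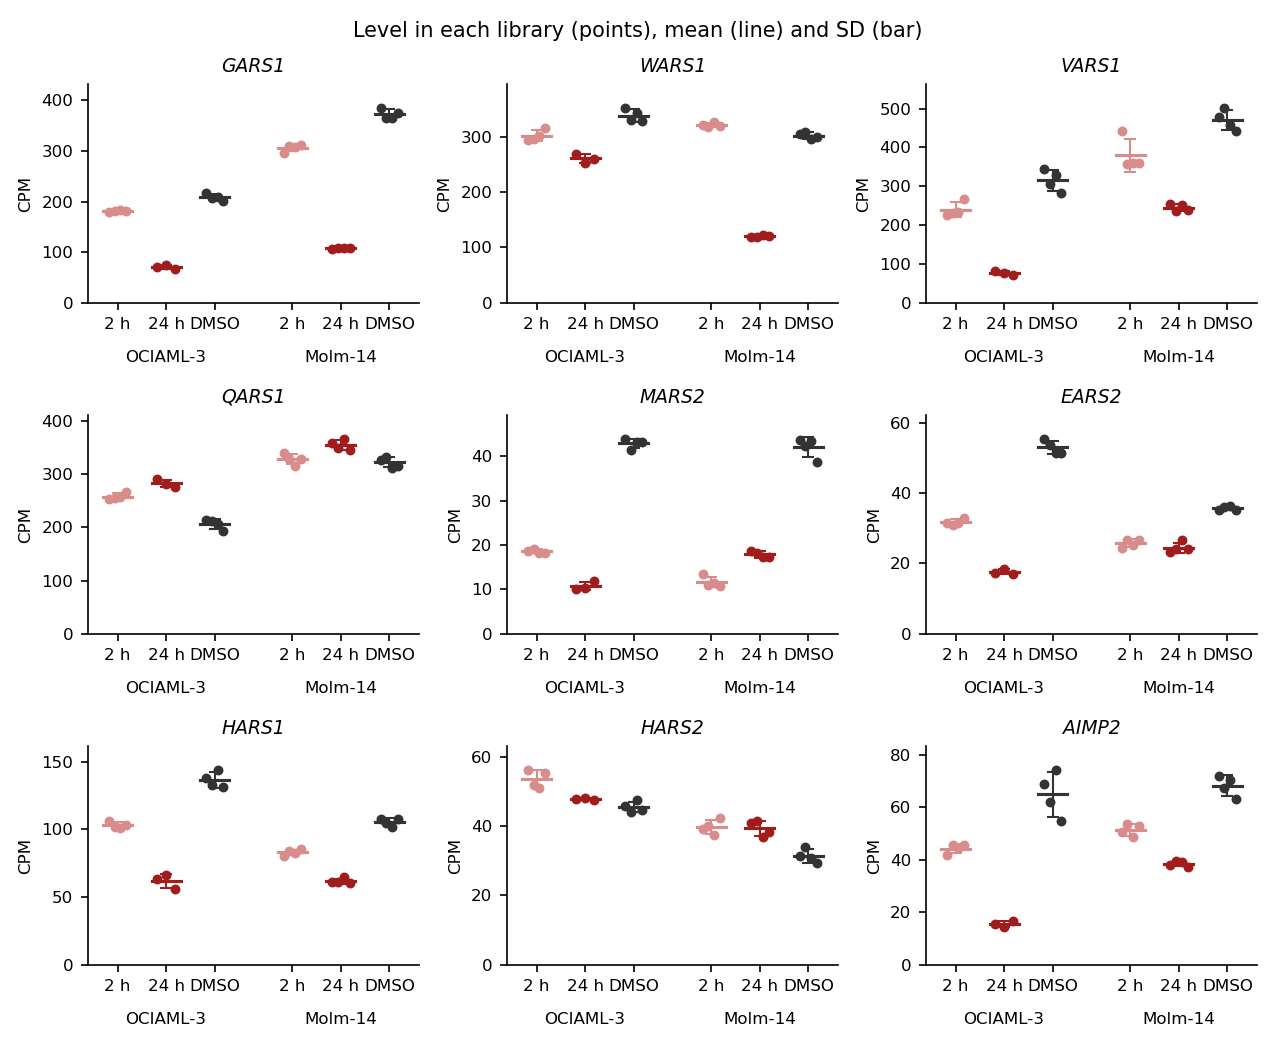
CPM of 9 members in each library (points) of OCIAML-3 and Molm-14 at 2 h and 24 h of RMC-7977 and in DMSO, with the group mean (line) and SD (bar); each vertical axis starts at 0. WARS1 at 24 h stays at 253 to 269 CPM in OCIAML-3 and reaches 118 to 122 CPM in Molm-14, EARS2 at 24 h reaches 17.1 to 18.4 CPM in OCIAML-3 and 23.2 to 26.6 CPM in Molm-14, and QARS1 and HARS2 show no lower drug group.

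The head-to-head pair HARS1 and HARS2 moved apart under the drug. HARS1 had 106, 102, 101 and 103 CPM after 2 h and 63.2, 66.1 and 55.8 CPM at 24 h in OCIAML-3, against 138, 133, 144 and 131 CPM in DMSO. HARS2 had 56.2, 51.9, 50.9 and 55.4 CPM after 2 h and 47.9, 48.0 and 47.4 CPM at 24 h in OCIAML-3, against 45.7, 44.1, 47.5 and 44.7 CPM in DMSO. In OCIAML-3, HARS1 was below DMSO in every drug library, while HARS2 was above it at 2 h and touched its upper end at 24 h.

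In Molm-14, HARS1 had 80.7, 83.9, 82.4 and 85.4 CPM after 2 h and 61.0, 61.3, 64.5 and 60.4 CPM at 24 h, against 108, 105, 102 and 108 CPM in DMSO. HARS2 had 39.1, 40, 37.5 and 42.3 CPM after 2 h and 40.8, 41.5, 36.9 and 38.3 CPM at 24 h, against 31.3, 33.9, 30.9 and 29.3 CPM in DMSO. All HARS1 drug libraries were below DMSO and all HARS2 drug libraries were above it. HARS1 fell at 24 h in OCIAML-3 (-1.15 ± 0.05, adjusted p = 1.8e-19; -0.97 and not called with library totals), and its change in Molm-14 was -0.78 ± 0.05. HARS2 changed by 0.07 ± 0.06 in OCIAML-3 (adjusted p = 0.25) and by 0.33 ± 0.05 in Molm-14 (adjusted p = 1.6e-06) at 24 h. The log2 ratio of HARS1 to HARS2 within a library was 0.37 ± 0.12 at 24 h in OCIAML-3, against 1.58 ± 0.02 in DMSO, and 0.65 ± 0.11 at 24 h in Molm-14, against 1.76 ± 0.11 in DMSO (SD). Their annotated exons overlap by 402 bases on opposite strands, 14.2% of HARS2, so reads there cannot be assigned without the strand setting.

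For 16 amino acids a cytosolic and a mitochondrial gene were set against each other, EPRS1 serving for glutamate and proline, and their ratio within a library does not depend on the scaling of libraries. In OCIAML-3 at 24 h the ratio was below every DMSO library for 10 of the 16, overlapped for 1 and was above for 5, with a median change of -0.60 in log2 and a range of -1.81 to 0.96. In Molm-14 at 24 h it was below for 14 and overlapped for 2, with a median change of -0.60. At 2 h it was below for 11 and above for 2 in OCIAML-3, with a median of -0.32, and below for 6 and above for 4 in Molm-14, with a median of 0.03. No background over other gene pairs was computed.

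In OCIAML-3 at 24 h the pairs at the ends were phenylalanine and valine on the lower side and methionine on the upper. The log2 ratio of FARSA to FARS2 was 2.62 ± 0.08 at 24 h in OCIAML-3, against 4.43 ± 0.04 in DMSO, and 3.75 ± 0.08 at 24 h in Molm-14, against 4.62 ± 0.08 in DMSO. The ratio of VARS1 to VARS2 was 1.27 ± 0.05 at 24 h in OCIAML-3, against 3.02 ± 0.02 in DMSO, and 3.46 ± 0.21 at 24 h in Molm-14, against 3.46 ± 0.10 in DMSO. The valine ratio in Molm-14 overlapped DMSO. For methionine the ratio of MARS1 to MARS2 at 2 h was 2.69 ± 0.05 in OCIAML-3, against 1.94 ± 0.03 in DMSO, and 4.96 ± 0.10 in Molm-14, against 3.42 ± 0.07 in DMSO (SD). At 24 h it was 2.90 ± 0.13 in OCIAML-3, above DMSO, and 3.16 ± 0.04 in Molm-14, below DMSO.

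**Figure D3:**
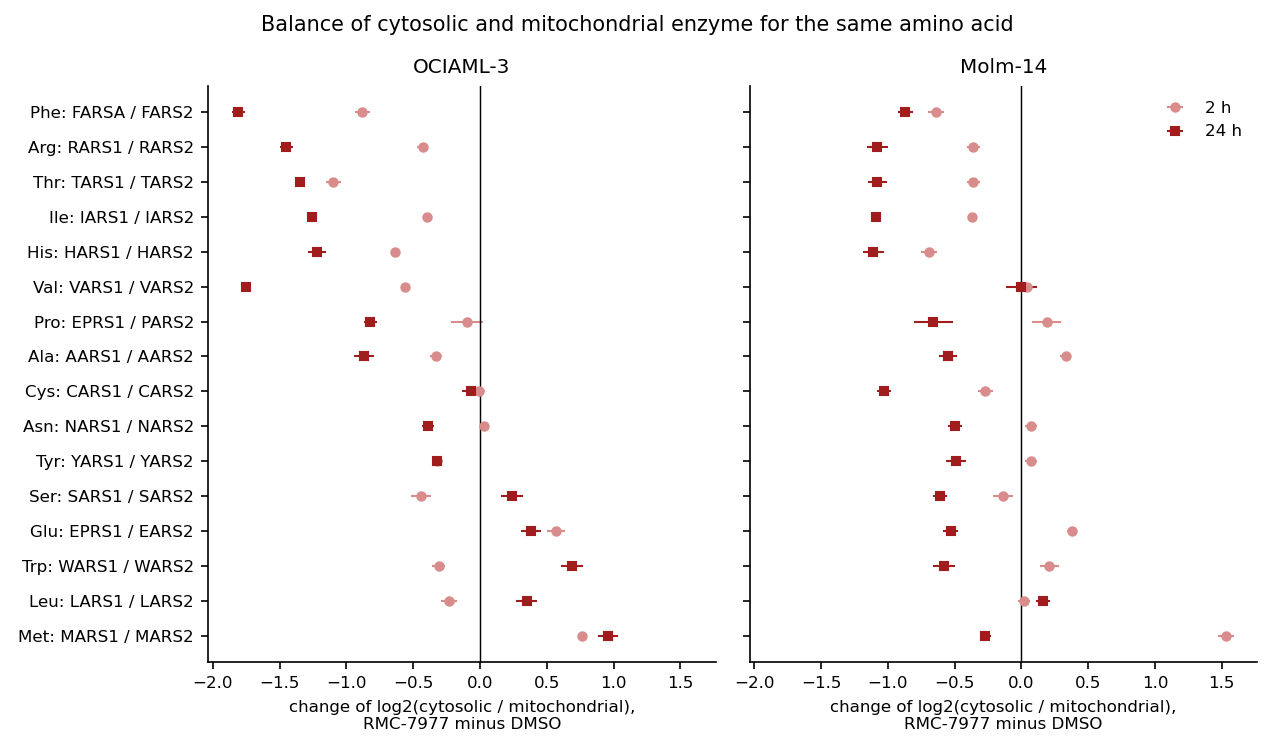
Change of the log2 ratio of cytosolic to mitochondrial gene within a library, RMC-7977 minus DMSO, for 16 amino acids (rows) in OCIAML-3 and Molm-14; circles are 2 h, squares 24 h, and bars the SE of the difference of group means. At 24 h most squares are below 0, from -1.81 for phenylalanine in OCIAML-3, while methionine is at 0.96 in OCIAML-3 and -0.27 in Molm-14.

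PTRH2 had 36.3, 37.3, 32.5 and 32.7 CPM after 2 h and 28.5, 28.9 and 30 CPM at 24 h in OCIAML-3, against 57.0, 55.4, 61.4 and 56.2 CPM in DMSO. In Molm-14 it had 17.3, 20.5, 18 and 22.4 CPM after 2 h and 24.5, 24.8, 26.7 and 24.9 CPM at 24 h, against 41.3, 38.6, 41.1 and 39.2 CPM in DMSO. All drug libraries were well below DMSO, with 24 h lowest in OCIAML-3 and 2 h lowest in Molm-14, as for MARS2. PTRH2 fell in Molm-14 at 2 h (-1.04 ± 0.06, adjusted p = 1.3e-14), a call that ended without Molm-14 2 h replicate 1 (-0.99). Its changes were -0.73 ± 0.06 at 2 h and -0.98 ± 0.07 at 24 h in OCIAML-3, and -0.67 ± 0.06 at 24 h in Molm-14. Without OCIAML-3 24 h replicate 4 it was called there (-1.0).

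Most cytosolic genes were lower at 24 h than at 2 h in both lines. At an adjusted p below 0.05 (limma), 19 of 20 were lower and 1 higher in OCIAML-3. In Molm-14, 18 were lower and 2 higher by that count. From 2 h to 24 h, 13 members fell in OCIAML-3, against 10.9% of all genes, and 6 fell in Molm-14, against 3.38%, and 0 rose in either, against 11.6% and 7.25% of all genes. The 6 in Molm-14 were all cytosolic, and the 13 in OCIAML-3 were 8 cytosolic and 4 mitochondrial enzymes and AIMP2. The median change of the cytosolic enzymes between the times was -0.78 in OCIAML-3 and -0.80 in Molm-14, and that of the mitochondrial enzymes was -0.66 in OCIAML-3 and -0.20 in Molm-14. MARS2 changed by -0.78 ± 0.07 in OCIAML-3 and by 0.62 ± 0.07 in Molm-14 between the times. Without the fold threshold, 37 were lower and 1 higher in OCIAML-3, against 39.1% and 38.5% of all genes, and 28 lower and 4 higher in Molm-14, against 34.8% and 33.4%. Limma at an unadjusted p below 0.05 counted 1 member as higher in OCIAML-3 and 4 in Molm-14, against 5115 and 4497 of all genes. By the rule for called genes, limma voom also had 0 members higher.

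Of the members that fell at 24 h, 11 fell in both lines, which is 55% of the 20 in OCIAML-3 and 84.6% of the 13 in Molm-14. They were AARS1, EPRS1, FARSA, FARSB, GARS1, IARS1, MARS1, RARS1, TARS1, YARS1 and MARS2. How many of all genes fell in both lines was not computed, so these shares have no background. The difference in 24 h response was called for 4 members, all lower in OCIAML-3, against 9.75% of all genes, a share near the background, and 0 were higher, against 8.09%. Without the fold threshold, 23 were lower and 8 higher, against 36.8% and 28.6% of all genes. Limma counted 8 as higher at an unadjusted p below 0.05, against 3912 of all genes. By the rule for called genes, limma voom also had 0 members higher. Among the 4 called lower by limma were AIMP2 (-1.24 ± 0.10, adjusted p = 5e-12), VARS1 (-1.10 ± 0.10, adjusted p = 2.2e-10) and EARS2 (-1.04 ± 0.08, adjusted p = 4.5e-13). The EARS2 call ended with median centring (-0.94), library totals (-0.97) or without Molm-14 24 h replicate 3 (-1.0), and that of VARS1 with median centring (-1.0). FARSB (-1.0 ± 0.06) was just short of the threshold and was called by limma voom (-1.0) and without any 1 of 5 libraries (-1.03 to -1.0), namely Molm-14 DMSO replicate 4, Molm-14 24 h replicate 2, OCIAML-3 DMSO replicates 2 and 4 and OCIAML-3 24 h replicate 4. WARS1 was called higher with median centring (1.06) and library totals (1.03). FARSA (-0.95 ± 0.07) was called without OCIAML-3 24 h replicate 1 (-1.03).

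At 2 h the difference in response was called for 0 members in either direction, against 3.52% of all genes lower and 2.12% higher. At an unadjusted p below 0.05 limma counted 9 as lower and 9 as higher in OCIAML-3 than in Molm-14. Of all genes, 2990 were lower and 3079 higher by that count. By the rule for called genes, limma voom also had 0 members in either direction. At an adjusted p below 0.05, 9 were lower and 6 higher, against 19.5% and 19.2% of all genes. The median difference was -0.07 for the cytosolic and 0.18 for the mitochondrial enzymes.

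**Figure D4:**
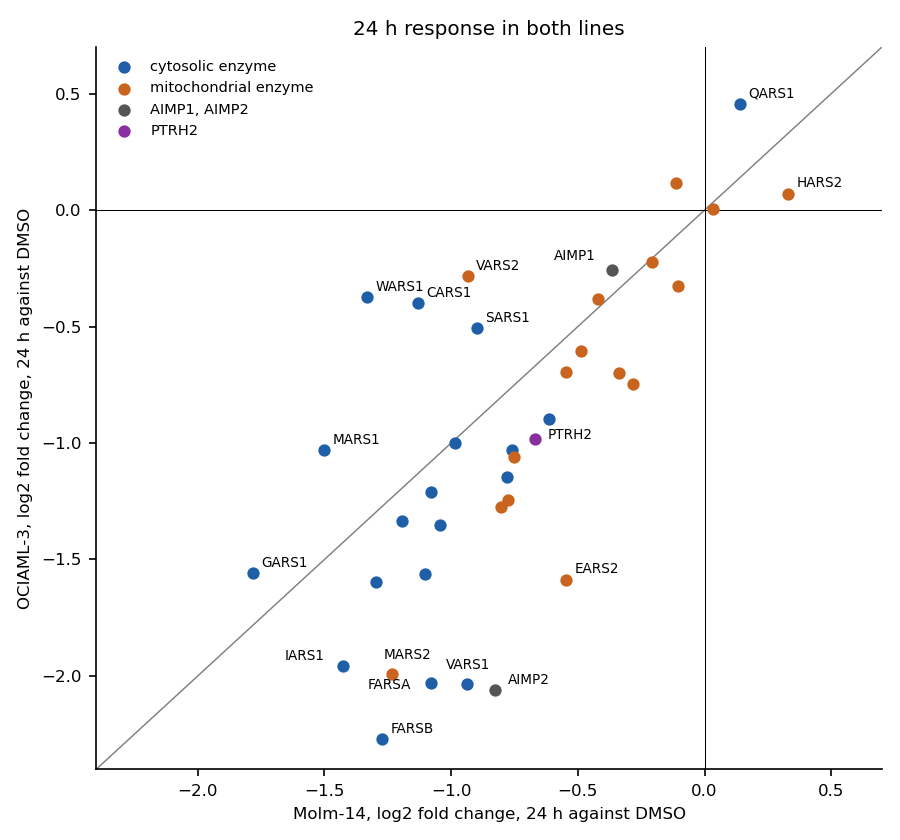
Log2 fold change at 24 h against DMSO in OCIAML-3 (vertical) and Molm-14 (horizontal) for 38 members, coloured by class, with the line of equal change. AIMP2 (-2.06 in OCIAML-3 and -0.83 in Molm-14), VARS1 and EARS2 lie well under the line, and WARS1 (-0.37 in OCIAML-3 and -1.33 in Molm-14) and CARS1 lie above it.

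In DMSO, 2 members were lower in OCIAML-3 than in Molm-14, against 12.2% of all genes, and 0 were higher, against 17.9%. These were MARS1 (-1.45 ± 0.03, adjusted p = 7.6e-26) and NARS1 (-1.04 ± 0.04, adjusted p = 3.4e-20). At an unadjusted p below 0.05 limma counted 12 as higher in OCIAML-3, against 5905 of all genes. By the rule for called genes, limma voom also had 0 members higher. At an adjusted p below 0.05, 21 were lower and 12 higher, against 37.4% and 45% of all genes. The median difference was -0.43 for the cytosolic and 0.01 for the mitochondrial enzymes, where the median of all genes was 0.07.

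By features of the enzymes, the falls at 24 h were spread widely. Over all genes, 17.1% fell in OCIAML-3 and 6.57% in Molm-14 at 24 h. Of 9 class I cytosolic enzymes 5 fell in OCIAML-3 (median -1.03) and 6 in Molm-14 (median -1.19), and of 10 class II enzymes 7 fell in OCIAML-3 (median -1.25) and 5 in Molm-14 (median -1.02). EPRS1 holds both folds and was left out of this count. Of 13 cytosolic enzymes listed from general knowledge as ATF4 targets, 8 fell in OCIAML-3 (median -1.21) and 9 in Molm-14 (median -1.10). Of the 7 others, 5 fell in OCIAML-3 (median -1.15) and 3 in Molm-14 (median -0.78). The 6 cytosolic genes with TGATGNAA in their window had a median of -1.19 in OCIAML-3 and -1.12 in Molm-14, and the 10 with a window but no match had medians of -1.18 in OCIAML-3 and -1.08 in Molm-14. These lists were chosen with results known and are given as counts and medians without a test.

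Genes around the synthetases were counted in the same fit. Of 14 genes of the amino acid response, 7 fell and 2 rose in OCIAML-3 at 24 h, with a median of -0.84, against 17.1% of all genes that fell and 18.4% that rose, so the 2 that rose are near the background. In Molm-14, 12 fell, with a median of -1.72, against 6.57% of all genes. The smallest adjusted p in OCIAML-3 belonged to the amino acid transporter SLC7A5 (-5.21) and to the serine synthesis genes PSAT1 (-4.30) and PHGDH (-3.16), and in Molm-14 to PSAT1 (-2.75), asparagine synthetase ASNS (-3.51) and the transporter subunit SLC3A2 (-1.76). SLC7A11 (1.96) and CEBPB (1.48) rose in OCIAML-3, and both fell in Molm-14 (-3.08 and -1.03). They are named after their values were seen. ATF4 itself changed by -0.03 in OCIAML-3 (adjusted p = 0.48) and by -0.73 in Molm-14 (adjusted p = 6.8e-16).

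Further lists cover elongation, tRNA processing and relatives of the synthetases, and their counts at 24 h stand against 17.1% of all genes that fell and 18.4% that rose in OCIAML-3, and 6.57% that fell and 11.4% that rose in Molm-14. The 5 cytosolic elongation factor genes changed by -0.41 to 0.32 in OCIAML-3 and by -0.31 to 0.27 in Molm-14 at 24 h, all short of the fold threshold. Of 4 mitochondrial elongation factor genes 2 fell in each line, GFM1 (-1.79 in OCIAML-3 and -1.31 in Molm-14) and TSFM (-1.41 in OCIAML-3 and -1.08 in Molm-14). Of 9 genes of tRNA end processing and export, 5 fell in OCIAML-3 and 3 in Molm-14, among them XPOT, which exports tRNA from the nucleus (-1.60 in OCIAML-3 and -1.24 in Molm-14), and TRMT10C, a subunit of mitochondrial RNase P (-1.32 in OCIAML-3 and -1.29 in Molm-14). EEF1E1, the third scaffold of the complex, fell in both lines (-2.46 in OCIAML-3 and -1.45 in Molm-14). With the other 6 synthetase-like genes listed, 5 of 7 fell in OCIAML-3 and 1 of 7 in Molm-14. Of the 4 genes for mitochondrial glutaminyl-tRNA amidation and formylation, 1, QRSL1, fell in OCIAML-3 (-1.02), and in Molm-14 the 4 changed by -0.73 to -0.22. Of 6 genes for the selenocysteine tRNA, SEPSECS rose in OCIAML-3 (1.27) and SEPHS1 fell in both lines (-1.89 in OCIAML-3 and -1.02 in Molm-14). In OCIAML-3 these counts of 1 each are near the background.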

How the data were processed

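Poly(A) RNA sequencing was deposited by the authors as 1 table of log2 CPM for 13033 genes and 23 libraries. The submitters' processing notes name edgeR 3.24.3, limma 3.38.3, MultiQC 1.28, RSEM 1.3.3, STAR 2.7.8a, Trimmomatic 0.36 and hg38 (GRCh38), without roles. Settings, strand and the low-count filter are not stated there. The lowest deposited log2 value was the same in all libraries (0.105 CPM), so log2 fold changes understate the change of low genes. Library sizes came from the spacing of low values, of which 74.5% to 82.2% lay within 0.05 of a whole read.

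All comparisons were contrasts in 1 limma 3.58.1 fit (R 4.3.3) of 6 group means with trend and robust moderation, tested on simulated data. Levels are CPM from the log2 values, and per kilobase values use the median GENCODE transcript length. Promoter windows came from RefSeq. Counts and medians cover all 40 members, but 2 of them are not reported singly here. The members and lists were chosen with earlier results of these data known. Values by library are given for the 6 largest called changes in each comparison with DMSO, the 2 highest and 2 lowest members in DMSO, GARS1, KARS1, WARS1, WARS2, PTRH2, AIMP1 and AIMP2. Those of HARS1, HARS2, QARS1, CARS1, EARS2 and AARS1 were added after their values were seen. Alternatives were a replicate block, other moderation, fewer groups, median centring, library totals, a pseudocount, a level filter, limma voom on read equivalents and leaving out each library.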

Additional observations from a re-analysis of the deposited data

Results flagged for a closer look

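Among 120 pairs of a member and a group of 4 libraries, 7 held a library apart from the other 3 by Dixon's criterion, and chance gives about 1 in 20. The highest libraries were 269 CPM for AARS1 and 14.8 CPM for FARS2 in OCIAML-3 at 2 h, 92.9 CPM for AIMP1 in Molm-14 at 24 h, 442 CPM for VARS1 in Molm-14 at 2 h and 11.1 CPM for PARS2 in OCIAML-3 DMSO. The lowest were 106 CPM for GARS1 in Molm-14 at 24 h and 405 CPM for IARS1 in Molm-14 DMSO. The 24 h response differed between the lines, with OCIAML-3 lower, by -1.24 for AIMP2, -1.1 for VARS1 and -1.04 for EARS2 on the log2 scale. In all, 4 members were called lower, against 9.75% of all genes, a share near the background. The EARS2 call ended with median centring (-0.94) or library totals (-0.97), and that of VARS1 with median centring (-1.0).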

How the results depend on the processing

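Alternative values for single members were kept only where the member was called in the main fit or under that setting. Of these 993 values, 942 kept their direction and side of the threshold, 29 lost and 22 gained a call, and none reversed. A reversal was hardly possible for changes of this size, and values called in neither fit were left out. The counts of members that fell at 24 h were 16 to 20 in OCIAML-3 and 10 to 13 in Molm-14 under the settings other than leaving out a library, and 19 to 22 and 13 to 14 without 1 library.

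Scaling moved the medians, and it also moved the median of all genes in OCIAML-3 at 24 h, to 0.12 with median centring and 0.18 with library totals, against 0.01. With median centring the cytosolic median was -0.26 in OCIAML-3 and -0.25 in Molm-14 at 2 h, -1.06 in OCIAML-3 at 24 h, -0.70 in OCIAML-3 from 2 h to 24 h, -0.18 for the difference between the lines at 24 h and -0.48 between the lines in DMSO. The mitochondrial median was -0.58 in OCIAML-3 at 24 h, -0.58 from 2 h to 24 h and -0.16 for the difference at 24 h, for which 1 member (WARS1) was called higher and 2 lower. With library totals the cytosolic median was -0.22 in OCIAML-3 at 2 h, -1.0 in OCIAML-3 and -0.98 in Molm-14 at 24 h, -0.68 in OCIAML-3 and -0.73 in Molm-14 from 2 h to 24 h, -0.02 for the difference between the lines at 2 h and -0.20 at 24 h, where 1 member was called higher. The mitochondrial median was 0.03 in OCIAML-3 at 2 h, the opposite sign to -0.04, -0.52 in OCIAML-3 and -0.39 in Molm-14 at 24 h, -0.56 and -0.13 from 2 h to 24 h and -0.19 for the difference at 24 h. The cause was not tested.

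Without 1 library each, 1 to 2 members fell in Molm-14 at 2 h, the cytosolic median between the lines in DMSO was -0.47 to -0.39, and the mitochondrial median in OCIAML-3 at 24 h was -0.71 to -0.63. With the replicate number as a block, 20 members fell in OCIAML-3 and 13 in Molm-14 at 24 h, with cytosolic medians of -1.17 and -1.08, and no count of members called changed. Over 22 pairs, libraries with the same number had deviations from their group means with a correlation of -0.18 to 0.10 over all genes. This does not tell whether they share a culture or batch, which the labels do not state.

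Counts over all genes moved most among low genes. With a pseudocount of 1 CPM, 205 genes rose in OCIAML-3 and 362 in Molm-14 at 2 h, against 421 and 561, and 134 differed upward between the lines at 2 h, against 276. A filter at a mean log2 CPM of 2, which tests fewer genes, left 198 and 354 rising at 2 h, 1432 and 938 at 24 h (against 2392 and 1481), and 831 and 582 from 2 h to 24 h (against 1516 and 945). It left 111 higher and 283 lower (against 459) for the difference at 2 h, 461 higher (against 1054) at 24 h, and 1268 higher (against 2339) in DMSO. PARS2, at the lowest level per kilobase in DMSO, had an SE of 0.12 to 0.13 at 24 h.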
